A study of Rattus norvegicus with 3 samples.

Results

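Trimethylation of histone H3 at lysine 4 (H3K4me3) marks the promoters of active genes, where it usually covers a short stretch around the transcription start. A minority of promoters carry the mark over a much longer stretch, and such broad domains are known in other tissues for lying at genes that define the identity of a cell. DLX3 is a homeodomain transcription factor of the distal-less family. It is needed for normal enamel and hair, and inherited mutations of it cause tricho-dento-osseous syndrome, in which enamel is thin or pitted.

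The regions described here are the H3K4me3 peaks of 4000 bp or more, called broad domains below. They number 1732 of the 25094 peaks in the H3K4me3 list, or 6.90%. They were chosen by the width of the deposited peak alone, without a DLX3 value, but with earlier results of these data known. The remaining 23362 H3K4me3 peaks are called narrower peaks. The DLX3 list, with 69263 peaks, supplied the readout.

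Both lists come from ChIP-seq, in which DNA bound by a chosen protein or mark is recovered with an antibody and sequenced. The tissue was the enamel organ, the epithelium that lays down tooth enamel, taken from the mandibular incisors of wild-type adult rats, teeth that grow throughout life. There was 1 library for each antibody and 1 input library without antibody, for which no values are used here. The antibody field of the labels reads anti-DLX4 and anti-H3K4me4, in disagreement with the sample titles, which were followed. How many animals were pooled for a library is not stated in the labels. The enamel organ is a mixture of cell types, and the lists cannot show whether the mark and DLX3 lay together in the same cells.

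Each antibody has 1 library, so replicate spread and a test between animals cannot be had. Shares carry 95% Wilson intervals. Differences carry 95% intervals from the spread between regions, which treat regions as independent. The difference in DLX3 score is an exception. Its interval comes from the ranked scores of DLX3 peaks in domains and treats those peaks as independent. It takes the median of narrower peaks as fixed, so it leaves out the error of that median. All these intervals cover counting error only. Depth is unknown, since peak lists carry no read counts, and a site outside the DLX3 list may have lacked reads. The labels do not say whether peaks were called against the input. Positions are in rn5, with starts counted from 1, and regions are named without genes because no rn5 gene table was used here.

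The width of domains ran from 4000 to 22306 bp, with a median of 4961 bp (quartiles 4382 and 5954 bp). Widths fell off without a break at the threshold: 2472 peaks measured from 3000 to under 4000 bp, 898 from there to under 5000 bp, 414 to under 6000 bp, 288 to under 8000 bp and 132 measured 8000 bp or more. The domains are thus the upper tail of 1 distribution. Together they covered 9.49 Mb, which was 18.4% of all sequence in H3K4me3 peaks. Their median peak score, the authors' deposited value for the strength of a peak within its list, was 2889 (quartiles 1676 and 3100), against 349 (quartiles 89.0 and 1662) in narrower peaks. Width and score come from the same library, so this difference is a description. A score of exactly 3100 was shared by 733 domains (42.3%) and 1721 narrower peaks (7.37%), and it cannot rank the peaks that share it.

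The 3 domains just inside it, on chromosomes 8 (121283614 to 121287613, 4000 bp), 10 (109725096 to 109729096, 4001 bp) and 7 (12095315 to 12099316, 4002 bp), overlapped 1, 2 and 0 DLX3 peaks. The 3 peaks just outside, each 1 bp short of it, on chromosomes 1 (95703977 to 95707975), 2 (45267076 to 45271074) and 8 (22511073 to 22515071), overlapped 2, 1 and 0. Over wider classes, 14.5% of the peaks from 3000 to under 4000 bp held 2 or more DLX3 peaks, against 26.8% of those from 4000 to under 5000 bp.

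The widest domains differed in how much DLX3 they held. The widest, of 22306 bp on chromosome 7 (12564889 to 12587194), had an H3K4me3 score of 346 and held 2 DLX3 peaks with scores of 251 and 712, which covered 41.8% of it. It adjoined the next, of 19135 bp (12587290 to 12606424, score 2274), which held 3 DLX3 peaks with scores of 211, 190 and 135 and was 39.3% covered. These neighbours were called as separate peaks, and both had long stretches of the mark free of called DLX3.

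The other domains among the 10 widest were mostly filled with DLX3 peaks. The domain of 18817 bp on chromosome 10 (109007182 to 109025998, score 3100) held 6 DLX3 peaks and was 90.7% covered. The highest DLX3 score in it was 905 and the lowest 59.0. The domain of 18199 bp on chromosome 19 (63745290 to 63763488, score 3100) also held 6, with scores from 80.9 to 670, and was 78.8% covered. Strong and weak DLX3 peaks stood side by side within both of these domains.

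On chromosome 18, a domain of 17584 bp (70525656 to 70543239, score 3100) was 97.2% covered by 4 DLX3 peaks with scores of 493, 2023, 471 and 816. On chromosome 7, a domain of 16980 bp (126265893 to 126282872, score 3008) held 7 DLX3 peaks, the most of any domain, and was 93.6% covered. Their scores, in order along the chromosome, were 155, 235, 110, 946, 233, 588 and 613. No single DLX3 peak accounted for the coverage of either domain. The domain of 15975 bp on chromosome 1 (83371960 to 83387934, score 1441) held 3 DLX3 peaks and was 80.3% covered.

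The last 3 of the 10 held few DLX3 peaks and differed widely in coverage. A domain of 12896 bp on chromosome 12 (15829112 to 15842007, score 3100) held 1 DLX3 peak of 11746 bp with a score of 1094, which covered 91.1% of it. A domain of 12854 bp on chromosome 20 (39610478 to 39623331, score 3100) held 2, with scores of 1426 and 3100, and was 85.1% covered. A domain of 12845 bp on chromosome 10 (82559471 to 82572315, score 2989) also held a single DLX3 peak, with a score of 738, but this peak was 2851 bp wide and covered 22.2%. The map of the 10 widest domains shows these arrangements, in which DLX3 peaks either tile the domain or occupy 1 side of it.

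**Figure D1:**
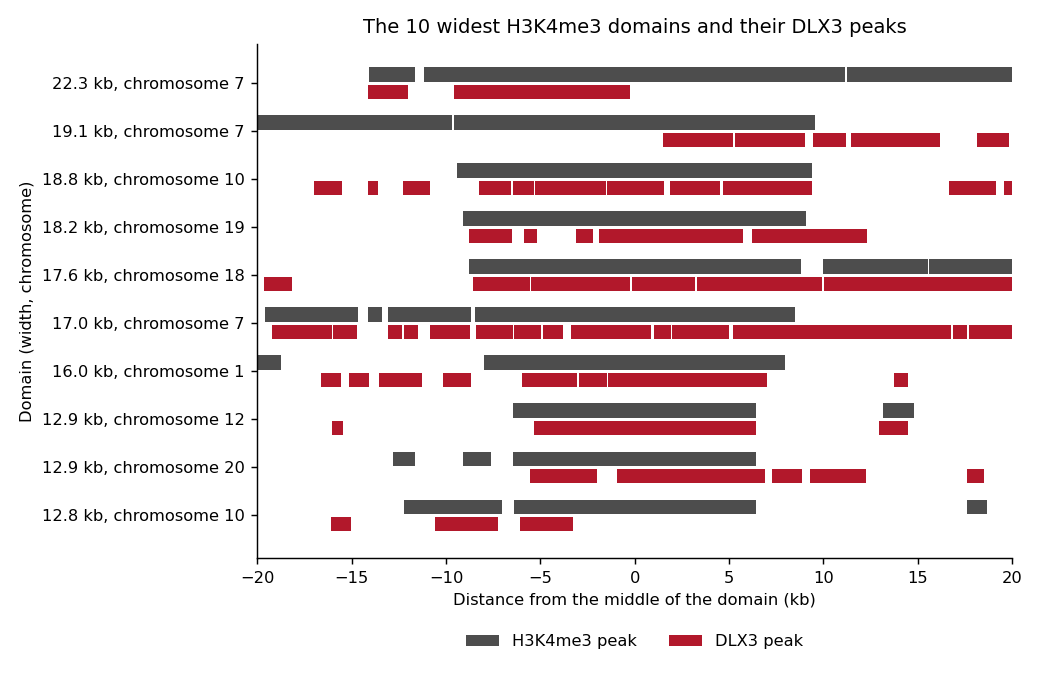
The 10 widest H3K4me3 domains, 1 per row from 22.3 kb down to 12.8 kb, with H3K4me3 peaks (grey) above DLX3 peaks (red), by distance in kb from the middle of the domain. DLX3 peaks cover from 22.2% of a domain (the last row) to 97.2% (the domain on chromosome 18).

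Across all domains, 1622 of 1732 overlapped at least 1 DLX3 peak by 1 bp or more, which is 93.6% (Wilson interval 92.4 to 94.7%), against 63.9% of all H3K4me3 peaks. No DLX3 peak was found in 110 domains. A single DLX3 peak was held by 946 domains, 2 by 533, 3 by 119, 4 by 13, 5 by 7, 6 by 3 and 7 by 1. Thus 676 domains (39.0%, interval 36.8 to 41.3%) held 2 or more, against 6.08% of all H3K4me3 peaks. For 3 or more the count was 143 domains (8.26%), against 0.662%. A longer region has more room for overlap, so these shares were set beside measures that take length and score into account.

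Narrower peaks of similar score were compared by weighting them to the scores of the domains, in 10 equal-sized classes below 3100, the shared score of 3100, and scores above it. With that weighting, 86.1% of narrower peaks overlapped DLX3, and the domains exceeded them by 7.59 percentage points (interval 6.33 to 8.84). At the shared score of 3100 the shares were 98.2% and 97.6%, a difference of 0.667 points (interval -0.536 to 1.87). No difference in occupancy was detectable among peaks of that score, where nearly all overlapped DLX3 and little room for a difference was left. The count of DLX3 peaks did differ there. At a score of 3100, 40.9% of domains held 2 or more, against 5.93% of narrower peaks, and over all score classes the values were 39.0% and 4.94%, a difference of 34.1 points (interval 31.7 to 36.4).

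DLX3 peaks sharing a domain often lay close together. In the 533 domains with exactly 2, the gap between them had a median of 283 bp (quartiles 85 and 800 bp), and in 234 of these domains (43.9%) it was 200 bp or less. After DLX3 peaks within 200 bp were joined, 23.6% of domains held 2 or more, against 1.82% of narrower peaks weighted to score. The 2 peaks of a domain were also unequal: the higher DLX3 score was a median of 2.35 times the lower (quartiles 1.48 and 4.16).

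Per length, domains held fewer DLX3 peaks than narrower peaks of similar score. There were 2.50 DLX3 peak centres per 10 kb of domain and 3.64 per 10 kb of narrower peaks, a difference of -1.15 (interval -1.22 to -1.08). The share of sequence inside DLX3 peaks differed little. DLX3 peaks covered 64.5% of the sequence of domains and 61.2% of that of narrower peaks weighted to score, a difference of 3.37 points (interval 2.04 to 4.71). At the shared score of 3100 the covered shares were 72.2% and 71.8%, a difference of 0.448 points (interval -1.25 to 2.15).

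The DLX3 peaks of domains were wider. Those overlapping domains were a median of 2314 bp wide, with quartiles of 1529 and 3316 bp. Those overlapping narrower peaks of any score were a median of 1385 bp wide. At the H3K4me3 score of 3100 the medians were 2697 bp in domains and 1857 bp in narrower peaks. DLX3 peaks of 4000 bp or more overlapped 365 domains (21.1%, interval 19.2 to 23.1%) and 324 narrower peaks of any score (1.39%, not weighted to score). Of the 1141 DLX3 peaks of that width, 371 (32.5%) overlapped a domain. Per length, fewer but wider DLX3 peaks thus covered about the same share of a domain as of a strong narrower peak.

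The covered share was higher in domains with more DLX3 peaks, with a median of 61.8% for those holding 1, 74.9% for 2 and 79.8% for 3 or more. Wider domains held more DLX3. The share with 2 or more DLX3 peaks was 26.8% under 5000 bp, 42.5% from 5000 to under 6000 bp, 54.2% from 6000 to under 8000 bp and 78.0% at 8000 bp or more. The covered share went from 58.9% through 64.4% and 68.2% to 76.4% over the same classes, so it did not thin out as domains lengthened. Among domains with the shared score it stood at 69.3%, 70.6%, 71.6% and 80.8%, and only the widest class, of 76 domains, stood clearly above the others. The density of DLX3 peak centres went the other way, from 2.60 to 2.28 per 10 kb.

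**Figure D2:**
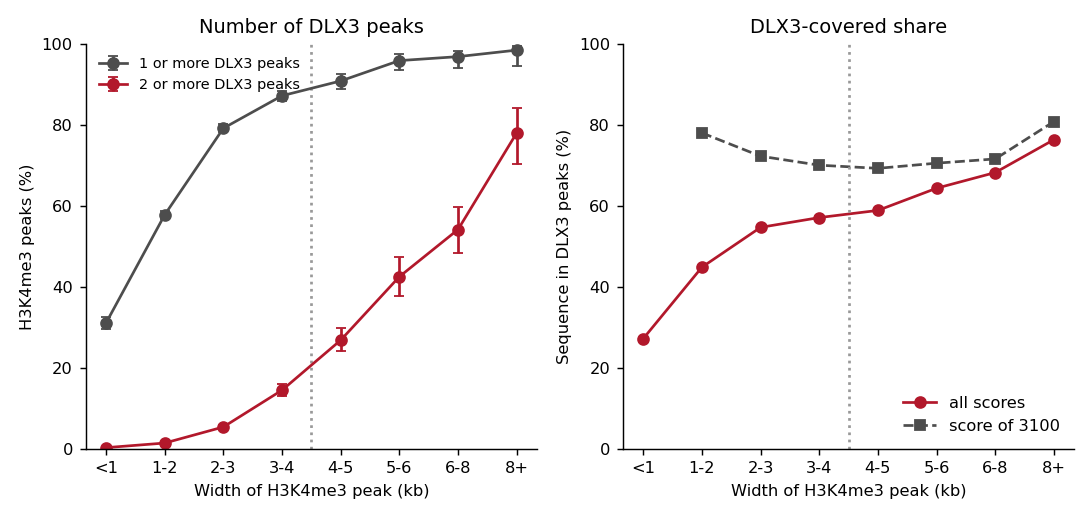
DLX3 in H3K4me3 peaks by width class in kb, all peaks of the list; the dotted line is the 4 kb threshold. Left, share of H3K4me3 peaks with 1 or more and 2 or more DLX3 peaks, with Wilson intervals, the latter reaching 78.0% in the widest class; right, share of sequence in DLX3 peaks, for all scores and for the shared score of 3100, where it stays between 69.3% and 80.8% from 4 kb up (the narrowest class at 3100 held 2 peaks and is not drawn).

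The comparison by score class showed where domains and narrower peaks parted. From the ninth score class upwards the covered shares of domains and narrower peaks lay close together: 55.0% and 55.3% in the ninth class, 61.7% and 61.3% in the next, and 63.5% and 65.3% above 3100. In the lower classes domains were covered more. In the seventh class, scores of 602 to 1107, DLX3 peaks covered 49.9% of the sequence of 146 domains and 40.6% of that of 2091 narrower peaks. In the sixth, scores of 287 to 602, the values were 53.5% of 63 domains and 36.4% of 2173 narrower peaks. The share holding 2 or more DLX3 peaks was between 31.7% and 40.9% for domains from the fifth class upwards and between 3.32% and 5.93% for narrower peaks.

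**Figure D3:**
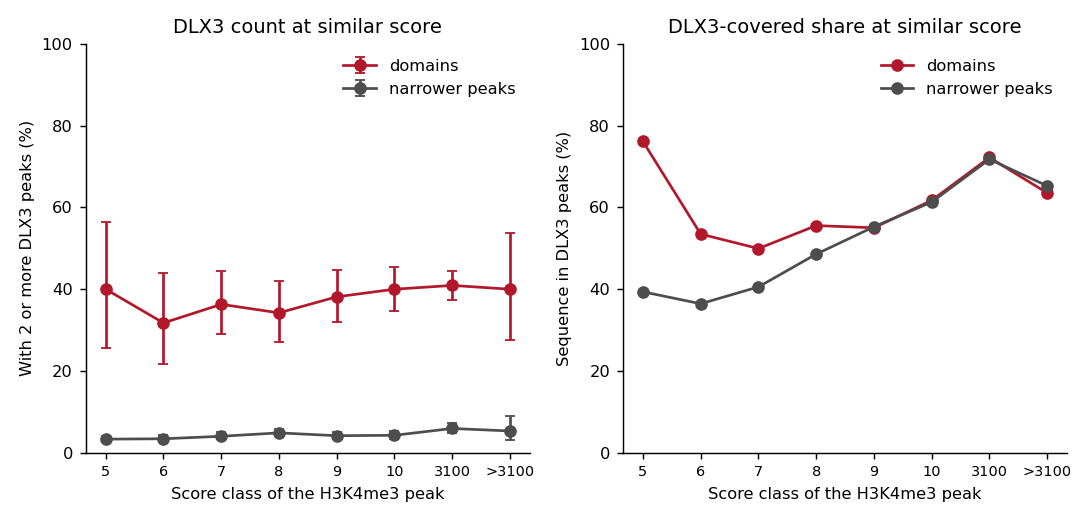
Domains (red) and narrower H3K4me3 peaks (grey) by H3K4me3 score class: classes 5 to 10 of 10 equal-sized classes below 3100, exactly 3100, and above. Left, share with 2 or more DLX3 peaks with Wilson intervals; right, share of sequence in DLX3 peaks, which is 72.2% and 71.8% at 3100 but 53.5% and 36.4% in the sixth class.

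DLX3 peaks in domains had higher scores than those in narrower peaks, but the direction differed between width classes of the DLX3 peaks. Those with their centre in a domain had a median score of 198 (quartiles 103 and 381), against 175 in narrower peaks weighted to score, a difference of 22.9 (interval 15.95 to 32.5). At the H3K4me3 score of 3100 the medians were 264 and 239. The highest DLX3 score within a domain had a median of 276 over the 1622 domains with DLX3. Domains held 2473 DLX3 peaks, which is 3.57% of the list, but 215 of the 692 DLX3 peaks in the upper 1% by score (31.1%, interval 27.7 to 34.6%). Of the same 692, 477 (68.9%) overlapped an H3K4me3 peak of any width. These shares were matched neither for H3K4me3 score nor for DLX3 width. When narrower peaks were weighted by the width class of the DLX3 peak as well as by H3K4me3 score, their median DLX3 score was 207 and the difference turned to -9.55 (interval -16.5 to 0.04). At an H3K4me3 score of 3100, DLX3 peaks of 1000 to under 2000 bp had medians of 141 (212 peaks) in domains and 221 (974 peaks) in narrower peaks. Those of 3000 to under 4000 bp had medians of 365 (225 peaks) and 368 (91 peaks). At 4000 bp or more the medians were 584 for 202 peaks in domains and 312 for 5 in narrower peaks. Over all H3K4me3 scores, the medians were lower in domains in the 3 classes under 3000 bp: 82.2 and 87.1 under 1000 bp, 131 and 140 from 1000 to under 2000 bp, and 205 and 207 from 2000 to under 3000 bp. They were higher above that, with medians of 321 and 283 from 3000 to under 4000 bp and of 476 and 393 at 4000 bp or more.

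The strongest DLX3 peaks differed in how much of their domain they filled. The highest DLX3 score in a domain, 3131, belonged to a peak covering 93.3% of a domain of 8309 bp on chromosome 6 (115988172 to 115996480). A DLX3 score of exactly 3100 was found in 6 domains. The peak of that score alone covered 100% of a domain on chromosome 1 (86590458 to 86599884), 94.5% of 1 on chromosome 5 (117956566 to 117963208) and 100% of 1 on chromosome 10 (87909977 to 87918177). In the other 3 it covered less by itself: 65.1% of a domain on chromosome 10 (86745542 to 86755979), 57.4% of the domain of 12854 bp on chromosome 20 already named, and 30.3% of a domain on chromosome 19 (37066398 to 37078758). With their other DLX3 peaks, these 3 domains were covered to 98.7%, 85.1% and 81.9%. All 7 domains had the H3K4me3 score of 3100. The domains on chromosome 20 and chromosome 19 were added after their values were seen, since they share the score.

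In all, 40 domains (2.31%) lay wholly within DLX3 peaks, against 1157 (4.95%) of the 23362 narrower peaks of any score. Full coverage was thus less frequent in domains, but a longer region needs wider DLX3 peaks to be filled, and these shares take no account of length. Coverage over 50% or more of the length was found in 1249 domains (72.1%) and 12510 narrower peaks of any score (53.5%, not weighted to score). At the shared score of 3100 the median covered share was 73.8% in domains and 74.8% in narrower peaks. The first 5 by position of the 40 wholly covered domains were all on chromosome 1. They were the domain with the DLX3 score of 3100 just named and those at 83680873 to 83688521, 83757713 to 83762691, 125921788 to 125928321 and 274510945 to 274518368. Their H3K4me3 scores ranged from 151 to 3100, and the last lay inside a DLX3 peak of 17168 bp. After the domain with 7 DLX3 peaks and those with 6 among the 10 widest, the domains with most DLX3 peaks were 1 of 11460 bp on chromosome 8 (77164148 to 77175607) with 6 and 92.3% covered, and the 7 domains tied at 5, of which the first by position measured 8796 bp on chromosome 1 (222533467 to 222542262) and was 65.2% covered.

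DLX3 peaks did not gather at the middle of domains. For each DLX3 peak lying wholly inside an H3K4me3 peak, the gap on its left was divided by the sum of the gaps on both sides. This takes the width of the DLX3 peak into account. Even placement would put 50% of lone DLX3 peaks nearer to the middle of this free range than to an edge. DLX3 peaks sharing a region cannot overlap each other, so 50% is no expectation for them. In domains 1148 of 1854 were in regions holding 2 or more, and in narrower peaks 1001 of 9547. Of all 1854 DLX3 peaks wholly inside domains, 637 (34.4%, interval 32.2 to 36.6%) lay nearer to the middle, against 46.8% over the whole list. In narrower peaks weighted to score the share was 50.8%, a difference of -16.4 points (interval -18.8 to -14.0). The outermost of 10 bins of the free range held 21.0% of the DLX3 peaks in domains, and the innermost 5.88%.

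The placement differed with the number of DLX3 peaks held. In domains with 2 DLX3 peaks, 25.4% of those wholly inside lay nearer to the middle, and in narrower peaks with 2 it was 26.5%. In domains with 3 or more it was 40.7% (148 of 364, interval 35.7 to 45.8%). In domains with a single DLX3 peak, 290 of 706 (41.1%, interval 37.5 to 44.7%) lay nearer to the middle, against 51.9% (interval 50.8 to 52.9%) of 8546 in narrower peaks. The lone DLX3 peak of a domain was therefore also placed more often towards an edge, while that of a narrower peak was placed nearly evenly. Peak edges and not summits are given in the lists, so the place of strongest DLX3 signal is not known.

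**Figure D4:**
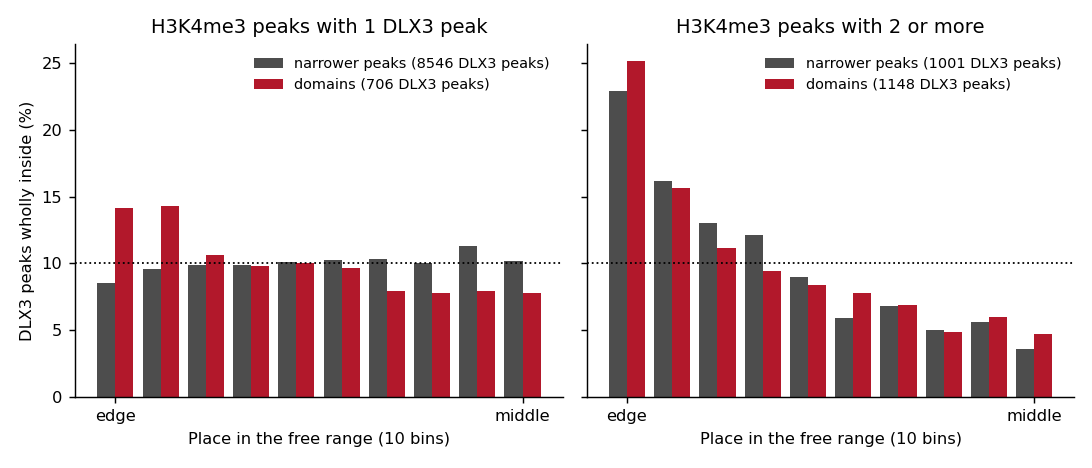
Place of DLX3 peaks lying wholly inside an H3K4me3 peak, from edge to middle of their free range in 10 bins. The dotted line is the 10% of even placement of a lone DLX3 peak and is no expectation for those sharing a region. With 1 DLX3 peak (left) narrower peaks (grey) follow the line and domains (red) lean to the edge, with 14.2% in the outermost bin; with 2 or more (right) both lean to the edge, with 25.2% of DLX3 peaks in domains there.

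Over all domains, the middle was nevertheless the part most often covered, which depends on the width of DLX3 peaks as well as on their place. The middle base lay in a DLX3 peak in 1306 domains (75.4%, interval 73.3 to 77.4%), against 58.8% of all H3K4me3 peaks and 82.6% of narrower peaks weighted to score. Of the 3464 edge bases of domains, 668 (19.3%, interval 18.0 to 20.6%) lay in a DLX3 peak, against 15.1% over all H3K4me3 peaks and 7.96% in narrower peaks weighted to score. The middle was thus covered less often and the edges more often than in narrower peaks of similar score. These values do not separate place from width. A DLX3 peak inside a region and longer than 50% of it covers the middle wherever it lies. At the shared H3K4me3 score, median DLX3 and region widths were 2697 and 5185 bp in domains, and 1857 and 2701 bp in narrower peaks. How much of the differences width accounts for was not tested. With the upper 50% of DLX3 peaks by score, the middle values were 67.1% and 68.5%, a difference of -1.35 points (interval -3.72 to 1.02), while the edge values were 15.7% and 6.31%.

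Coverage climbed steeply inward from the edge. It was 29.8% in the first 250 bp, 62.3% between 750 and 1000 bp and 74.7% between 1750 and 2000 bp. Over 10 equal bins of a domain it was 38.1% and 38.7% in the outermost bins and 75.7% and 74.8% in the 2 innermost. In domains with 2 DLX3 peaks the profile was flat or slightly dipped in the centre, with 82.4% in the third bin and 78.7% in the fifth, and in 118 of these 533 domains (22.1%) the middle base fell in the gap between the DLX3 peaks. Of 2481 overlaps between a DLX3 peak and a domain, 1854 (74.7%) lay wholly inside, 587 (23.7%) crossed 1 edge and 40 (1.61%) spanned the domain. For narrower peaks of any score the shares were 62.5%, 30.0% and 7.49%. A longer region has more room to hold a whole DLX3 peak, and these shares take no account of length.

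In equal windows of 4000 bp on the midpoint of each H3K4me3 peak, DLX3 peaks covered 68.0% in domains and 39.5% in narrower peaks weighted to score. The window reaches past the edges of narrower peaks by construction, where DLX3 coverage was lower than within them. The difference was 28.5 points (interval 27.1 to 29.9).

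**Figure D5:**
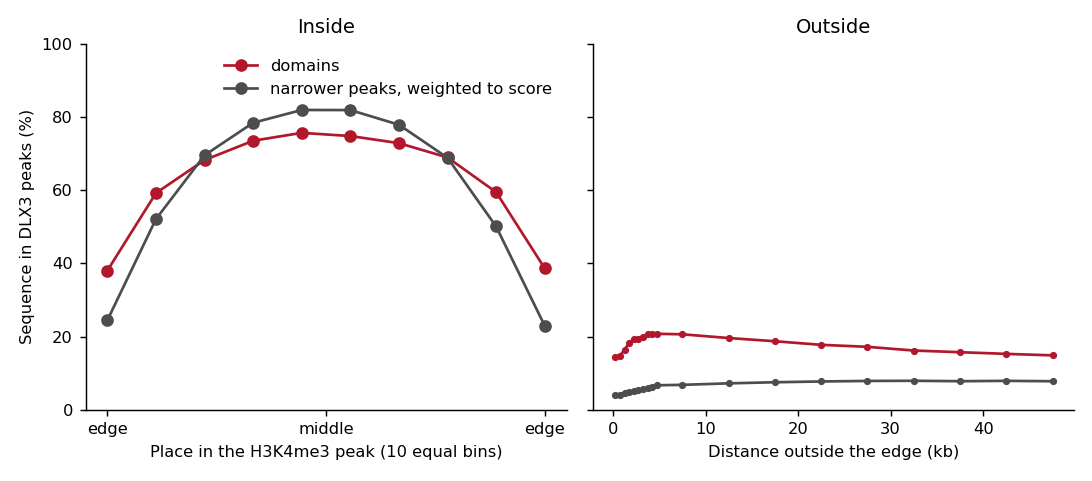
Share of sequence in DLX3 peaks for domains (red) and narrower H3K4me3 peaks weighted to their scores (grey). Left, across the H3K4me3 peak in 10 equal bins from edge to edge, from 38.1% in the first bin of domains to 75.7% in the fifth; right, outside the edges out to 50 kb, where domains stay above narrower peaks in every bin.

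The surroundings of domains were rich in DLX3. Within 50 kb of either edge, and not counting DLX3 peaks that overlap the domain itself, there was a mean of 9.88 DLX3 peaks and a median of 9 (quartiles 6 and 13). Narrower peaks weighted to score had a mean of 5.48, a difference of 4.40 (interval 4.12 to 4.67). Surroundings without any DLX3 peak were found for 24 domains (1.39%, interval 0.933 to 2.05%), against 9.69% of all H3K4me3 peaks. At the shared score of 3100 the means were 9.96 and 5.498, so the difference was as large among peaks of that score.

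The ratio to narrower peaks was highest next to the domain and declined outward. DLX3 peak centres numbered 0.902 per 10 kb within 5000 bp of a domain, 2.42 times the 0.373 of narrower peaks. The ratio was 2.20 between 5000 and 10000 bp (1.13 and 0.514 per 10 kb) and 1.93 between 10000 and 20000 bp. It was 1.57 between 40000 and 50000 bp (0.902 and 0.574 per 10 kb). The density around domains itself was thus not highest next to the edge. In covered sequence, 14.5% of the first 500 bp outside a domain lay in DLX3 peaks against 3.98% for narrower peaks. Between 4500 and 5000 bp it was 20.8% against 6.70%, and between 45 and 50 kb it was 14.9% against 7.80%. Just outside the edge, DLX3 was thus far less frequent than within the domain, where the outermost bins had 38.1% and 38.7%.

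Domains also lay in regions with more H3K4me3 peaks, with a mean of 3.94 others within 50 kb against 2.34 for narrower peaks weighted to score. When narrower peaks were weighted by the number of H3K4me3 peaks around as well as by score, their mean number of DLX3 peaks around was 7.07, and the difference from domains was 2.81 (interval 2.52 to 3.09). Counting only DLX3 peaks off the mark, the means were 6.70 and 3.797. With no other H3K4me3 peak within 50 kb, 165 domains had a mean of 6.24 DLX3 peaks around and 4513 narrower peaks of any score had 2.49. With 6 or more, the means were 12.05 and 10.8. The excess was thus smallest where the mark was densest. Gene density was not measured here, and its part in the result was not tested.

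The domains with most DLX3 peaks around them were on chromosome 9 (17525234 to 17531970, score 3100) with 39, chromosome 4 (6679073 to 6684956, score 1346) with 35, chromosome 13 (75588863 to 75592987, score 584) with 32, chromosome 1 (130164568 to 130169367, score 1129) with 31 and chromosome 9 (37654243 to 37658808, score 1789) with 31. Inside, these domains held 3, 2, 2, 1 and 2 DLX3 peaks, and between 46.8% and 99.8% of their sequence was covered. The first held DLX3 peaks with scores of 252, 676 and 1993. The last had no other H3K4me3 peak within 50 kb.

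The 110 domains without DLX3 had a median width of 4435 bp and a median H3K4me3 score of 1457, both below the medians of all domains. Most had DLX3 nearby. The nearest DLX3 peak lay a median of 5320 bp away (quartiles 2411 and 9640 bp), within 1000 bp for 10 of them, and the median number of DLX3 peaks in the 50 kb around was 8, against 9 for all domains. None was found around 7 of the 110 (6.36%, Wilson interval 3.12 to 12.6%), against 24 of all 1732 domains (1.39%).

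The 5 widest domains without DLX3 were on chromosome 10 (55738018 to 55746820, 8803 bp, score 1812), chromosome 3 (170424445 to 170432605, 8161 bp, score 1847), chromosome 12 (49010511 to 49017720, 7210 bp, score 2702), chromosome 14 (3058746 to 3065858, 7113 bp, score 1078) and chromosome 20 (5893133 to 5900155, 7023 bp, score 3100). Their nearest DLX3 peaks lay 45, 340, 2321, 15024 and 3155 bp away, and 9, 17, 10, 4 and 4 DLX3 peaks lay in the 50 kb around. For the first, a DLX3 peak called slightly longer would have counted as an overlap.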

How the data were processed

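Peaks were deposited as 1 list per ChIP library, each line giving chromosome, start, end, name and a score. The score is the authors' deposited value per peak and is compared only within a list. Build rn5 and the tools HOMER, MACS 1.4.2 and Bowtie 1.1.2 are named, per the submitters' processing notes, without roles or cutoffs, and neither list has a header. The depth is unknown.

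Overlaps (at least 1 bp), covered bases, free-range placement and the 50 kb surroundings were computed with Python 3.11.15, numpy 2.4.6, pandas 2.3.3 and scipy 1.17.1. The DLX3 counts equalled those of bedtools 2.31.1 in every H3K4me3 peak, with 0 differing. Narrower peaks were weighted to the domains over 12 score classes. The scripts were tested on simulated data.

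Groups follow the sample titles. The regions and lists were chosen with earlier results of these data known. Named regions follow a rule: the 10 widest domains, the 5 with most DLX3 peaks, highest covered share, highest DLX3 score, most DLX3 around and widest without DLX3, and the 3 nearest the threshold on each side. Regions added after the values were seen are marked as such where they are named. Alternatives varied the width threshold, DLX3 score, joining of peaks, overlap, surroundings and the comparison class. The weightings by H3K4me3 peaks around and by DLX3 width were chosen after seeing the data. No sequence is printed, because none of build rn5 was used here.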

Additional observations from a re-analysis of the deposited data

How the results depend on the processing

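Each of the 10 differences between domains and narrower peaks of similar score was recomputed under the alternatives, giving 88 values from 14 settings. Of these, 87 kept the direction of the difference and 1 reversed it; 47 stayed within the interval of the reported value and 40 of the same direction lay outside it. The interval of 4 held 0. The central 4 kb window reaches past the edges of narrower peaks, and a longer region has more room for 2 or more DLX3 peaks. The kept direction of these differences is therefore partly set by width. The differences at the middle base and the edge bases do not separate place from width either. The following differences, domains minus narrower, moved beyond the interval. For the share holding 2 or more DLX3 peaks the difference was 28.7 points with domains of 3500 bp or more, 44.9 with 5000 bp or more, 21.4 with the upper 50% of DLX3 peaks by score, 36.9 with H3K4me3 peaks within 200 bp joined, 21.7 with DLX3 peaks within 200 bp joined, and 31.2 both with the DLX3 centre inside and with at least 50% of the DLX3 peak inside. For the share overlapping DLX3 it was 13.7 points with the upper 50% of DLX3 peaks, 5.34 against narrower peaks of 2000 bp or more and 0.667 at the shared score of 3100. For DLX3 peak centres per 10 kb it was -1.06 with 5000 bp, -0.939 with the upper 50%, -1.07 and -1.44 with H3K4me3 and with DLX3 peaks joined, -1.26 at 3100, -0.871 against those of 2000 bp or more and -1.05 with H3K4me3 peaks around also weighted. For the covered share it was 6.12 points with 5000 bp, 4.997 with the upper 50% and 0.448 at 3100. For the central 4 kb it was 30.6 points with 5000 bp, 26.3 with the upper 50%, 27.0 with H3K4me3 peaks joined, 24.1 against those of 2000 bp or more and 26.3 with H3K4me3 peaks around also weighted. For the DLX3 score it was 39.9 with the upper 50%, 41.96 with DLX3 peaks joined and 15.5 against those of 2000 bp or more, and it reversed to -9.55 with the width class of the DLX3 peak also weighted, so the sign depends on that choice. For placement nearer to the middle it was -12.6 points with 1 DLX3 peak held. For the middle base it was -4.79 points with 3500 bp, -1.35 with the upper 50% and -9.82 with H3K4me3 peaks joined. For the edge bases it was 15.4 points with 5000 bp and 9.39 with the upper 50%. For the 50 kb around it was 2.82 DLX3 peaks with the upper 50%, 3.54 with DLX3 peaks joined, 3.71 against those of 2000 bp or more, 2.60 with 25 kb on each side, 2.91 with DLX3 peaks off the mark and 2.81 with H3K4me3 peaks around also weighted. Fewer DLX3 peaks under the stricter score, joining or smaller surroundings lower the counts by construction, while for the other movements the cause was not tested. No paired analysis was possible because each antibody has 1 library, and leaving out a library would leave no list.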

Other observations

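Domains of low H3K4me3 score had a high share of their sequence in DLX3 peaks, which was noticed after the values were seen and was not tested. DLX3 peak centres per 10 kb did not show the same order. From the lowest of the score classes upwards they were 4.56 (2 domains), 1.68 (4), 1.73 (6), 2.06 (16) and 2.54 (35), against 2.50 over all domains. In the 5 lowest of the 10 score classes, with scores under 287, there were 63 domains and 11119 narrower peaks. Their median widths were 4538 and 1176 bp, and these narrower peaks were not weighted to score. The contrasts that follow take no account of length, and a longer region has more room for overlap. DLX3 peaks covered 78.1% of the sequence of these domains and 42.2% of that of the narrower peaks, and the median covered share of a domain was 89.6%. Of these domains 95.2% (Wilson interval 86.9 to 98.4%) overlapped DLX3, against 46.2% of the narrower peaks. The DLX3 peaks in them had a median width of 2897 bp, and 51.6% of the edges of these domains lay inside a DLX3 peak (interval 42.9 to 60.1%). The mean number of DLX3 peaks in the 50 kb around was 14.3, against 6.72 for the narrower peaks, and the mean number of other H3K4me3 peaks there was 5.71 against 2.75.

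The 5 of lowest score among those with DLX3 were on chromosome 14 (84253137 to 84257244, H3K4me3 score 52.3), chromosome 10 (88900940 to 88905612, score 55.9), chromosome 7 (12049893 to 12053968, score 60.5, and 63747264 to 63752381, score 61.0) and chromosome 8 (47450480 to 47454661, score 67.3). DLX3 peaks covered 93.9%, 96.1%, 98.6%, 100% and 100% of them, and their strongest DLX3 peaks scored 99.2, 445, 171, 605 and 1507. The last lay inside a DLX3 peak of 9364 bp.

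The chromosomes differed in their share of wide peaks. Domains made up 11.5% of the H3K4me3 peaks of chromosome 10 (Wilson interval 10.2 to 12.9%) and 9.91% of those of chromosome 7 (8.54 to 11.5%), but 15 of 616 on X, which is 2.44% (1.48 to 3.98%). On X, 93.3% of the domains overlapped DLX3 and 65.1% of their sequence was covered, with a mean of 8.93 DLX3 peaks around, against 86.7 to 98.1% overlapping on the autosomes. Another H3K4me3 peak lay within 1000 bp of 392 domains (22.6%) and of 15.5% of narrower peaks.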
